A study of Mus musculus with 16 samples.

Results

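The proteasome genes of the mouse hippocampus were followed across the CA1, CA3 and dentate gyrus (DG) of trained and untrained mice. They were taken as every gene in the files whose symbol begins with Psm, followed by a letter from a to g and a number, pseudogenes left out, which gave 50 of 24972 genes. The core of the particle holds 19 of them (8 Psma genes of the alpha rings and 11 Psmb genes of the beta rings), the regulatory particle 21 (7 Psmc and 14 Psmd), and 10 are activators (5 Psme), an inhibitor (Psmf1) and assembly chaperones (4 Psmg). All mice were ArcCreERT2::eYFPflx animals on a C57BL/6 background, 3 to 4 months old, which carry an inducible Cre recombinase driven from the Arc gene and a floxed eYFP reporter, so that the controls carried both alleles too. Trained mice (2 females and 1 male) learned to avoid a shock zone on a rotating arena in the active place avoidance task, and untrained mice (1 female and 2 males) met the same arena with the shock always off. Tissue was taken after a retention test without shock, and the pieces of dorsal hippocampus of 1 animal were pooled by subregion. The 16 bulk RNA-seq libraries are 3 trained and 3 untrained of CA1, 3 and 2 of CA3, and 3 and 2 of DG. Each value is an estimated count, scaled between libraries by the authors before deposit, and the number of reads behind them is unknown.

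The proteasome is the main machine by which cells degrade proteins tagged with ubiquitin. Its core is a barrel of alpha and beta rings with the cutting sites inside, carried by Psmb5 (chymotrypsin-like), Psmb6 (caspase-like) and Psmb7 (trypsin-like), which the interferon-inducible Psmb8, Psmb9 and Psmb10 replace in the immunoproteasome. The regulatory particle caps the barrel. Its Psmc ATPases unfold the substrate and thread it into the core, and its Psmd subunits bind ubiquitin and remove it. In hippocampal neurons the proteasome takes part in the turnover of synaptic proteins, and its activity is needed for lasting forms of synaptic plasticity and memory.

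Several properties of the libraries cut across the groups. The normalized values of a library summed to between 7607326 and 7984931. Markers of dentate granule cells (Prox1, Dsp, C1ql2, Lct and Tdo2) were high in all 16 libraries, with summed values of 6840.2 to 8356 in CA1, 6071 to 10396 in CA3 and 7200.2 to 9252 in DG, so the labels CA1 and CA3 are not borne out by an absence of granule cell transcripts. The 5 CA1 pyramidal cell markers summed to 2676 to 4199 in untrained CA1, 1378 to 1762 in trained CA1 and 1108 to 1649 in DG. Xist, transcribed from the inactive X chromosome of females, had values of 7601 to 19592 in the 9 trained libraries and 25.5 to 52.4 in 6 of the 7 untrained ones. CA3 untrained 1 had an Xist value of 10587 with a value of 201 for the Y-linked Ddx3y, and DG trained 3 had 7601 with 255, while CA1 and DG of untrained 1 had Xist values of 26.1 and 25.5. Beside high Xist, Ddx3y was also 70.9 in CA1 trained 1, 100.6 in CA1 trained 3 and 92.9 in CA3 trained 3. In the remaining trained libraries, apart from DG trained 3, it was 1.7 to 12.9. Sex-linked transcripts therefore nearly coincide with training, which by the study's methods had both sexes in each group, and the part of sex in any training difference cannot be told apart. Between 7567 and 9759 genes had a value of 0 in 7 libraries (all trained CA1, trained CA3 1 and 2, both untrained DG) and 3124 to 5944 in the other 9, a split that coincides with training within CA1 and within DG. Over all subregions 3 of 5 CA3 pyramidal and 1 of 5 interneuron markers were higher after training, 1 of 5 dentate granule, 2 of 5 astrocyte and 1 of 3 leptomeninges markers were lower, and none of the CA1 pyramidal, oligodendrocyte, endothelial or choroid plexus markers was called.

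**Figure D1:**
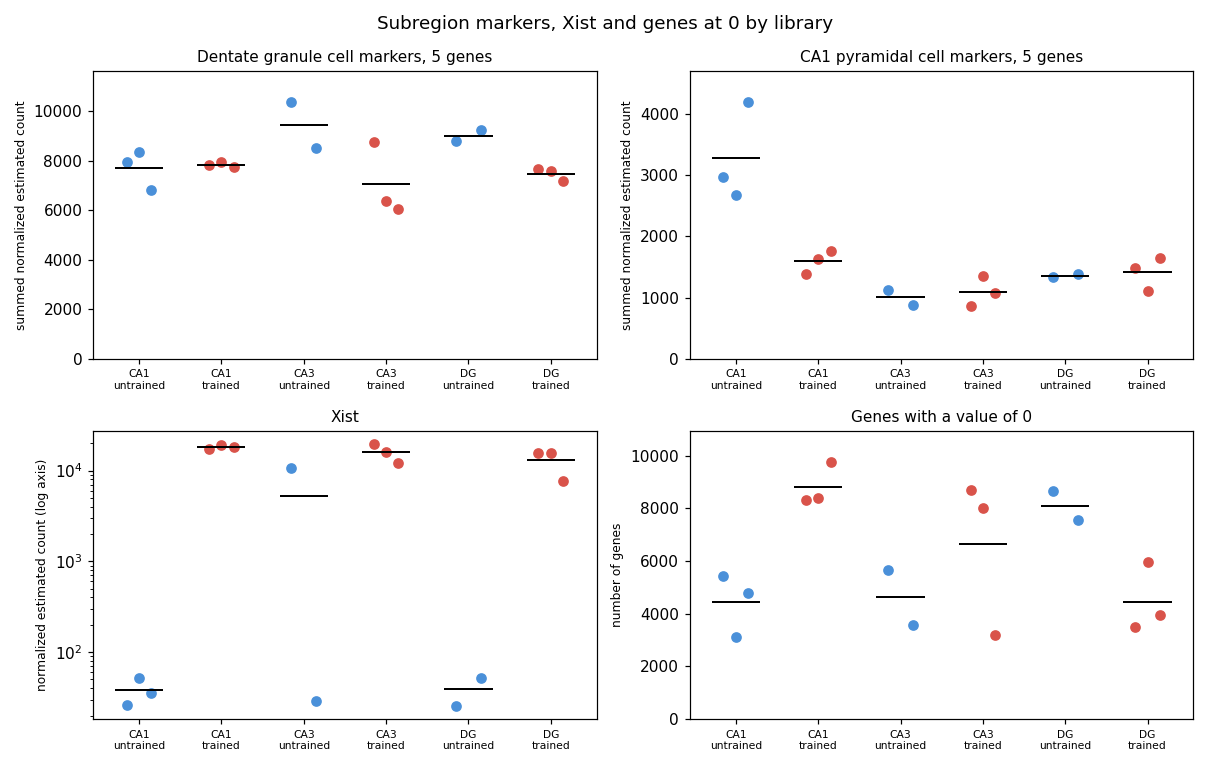
Summed normalized estimated counts of dentate granule and CA1 pyramidal cell markers, the Xist value (log axis) and the number of genes with a value of 0, for each of the 16 libraries by subregion and training (blue untrained, red trained, black lines are group means). Granule cell markers lie between 6071 and 10396 in every library, and Xist is at 10587 in 1 untrained CA3 library and at 25.5 to 52.4 in the other untrained ones.

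Most core and regulatory particle genes were among the 32 highest members, while 5 of the 19 core genes (Psmb10, Psmb8, Psmb9, Psma8 and Psmb11) were far lower. Levels are given per kilobase of the principal annotated transcript, as the mean ± SD over the 16 libraries. Psmb5 was the highest of the 50 genes at 519.6 ± 88.6, followed by Psmb6 at 501 ± 44 and the ATPase gene Psmc3 at 495 ± 32.8. The place of Psmb5 rests on the trained libraries, since over the 7 untrained ones its mean of 447 ± 57.9 lay below those of Psmc3 (492 ± 41.6) and Psmb6 (487 ± 32.5). Of the 50 genes, neighbours in this order mostly overlapped, as the range over libraries of a gene reached that of the next for all but 2 of the 49 steps. Those gaps lay below Psmd11 (141 ± 9.19) and below the assembly chaperone Psmg3 (42.7 ± 9.41). In the alpha ring the levels ran from Psma7 at 455 ± 39.2 down to Psma2 at 143 ± 15, with Psma8, a testis subunit, near 0 at 1.97 ± 1.24. Psma7 and Psma2 had mean values of 416 and 418 before division by lengths of 914 and 2911 bases. Their order therefore rests on the annotated transcript taken, and which transcript is expressed was not examined. Among the ATPases they ran from Psmc3 to Psmc6 at 177 ± 15.2. Among the Psmd genes Psmd2, which docks ubiquitin receptors, was highest at 470.1 ± 31.3, and Psmd5, Psmd10 and Psmd9 were lowest at 61.7 ± 5.92, 52.6 ± 7.13 and 51.5 ± 8.82. These 3 encode chaperones that assemble the ATPase ring and are not kept in the finished particle.

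The activators, the inhibitor and the chaperones were below the 32 highest genes, apart from Psme3, a nuclear activator, at 250.3 ± 15.4 per kilobase. Psme2b, an intronless copy of Psme2, was the lowest activator at 8.04 ± 3.3, and reads may have been split between it and Psme2. Psmf1, the inhibitor, had 49.3 ± 3.46. The 4 chaperones of the core ran from Psmg2 at 68.2 ± 12.4 to Psmg3. Psmc3ip matches the symbol rule but encodes a meiotic recombination factor and is no subunit, and it had 9.43 ± 2.83. It is left out of the sums of the regulatory particle, which then has 20 genes.

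**Figure D2:**
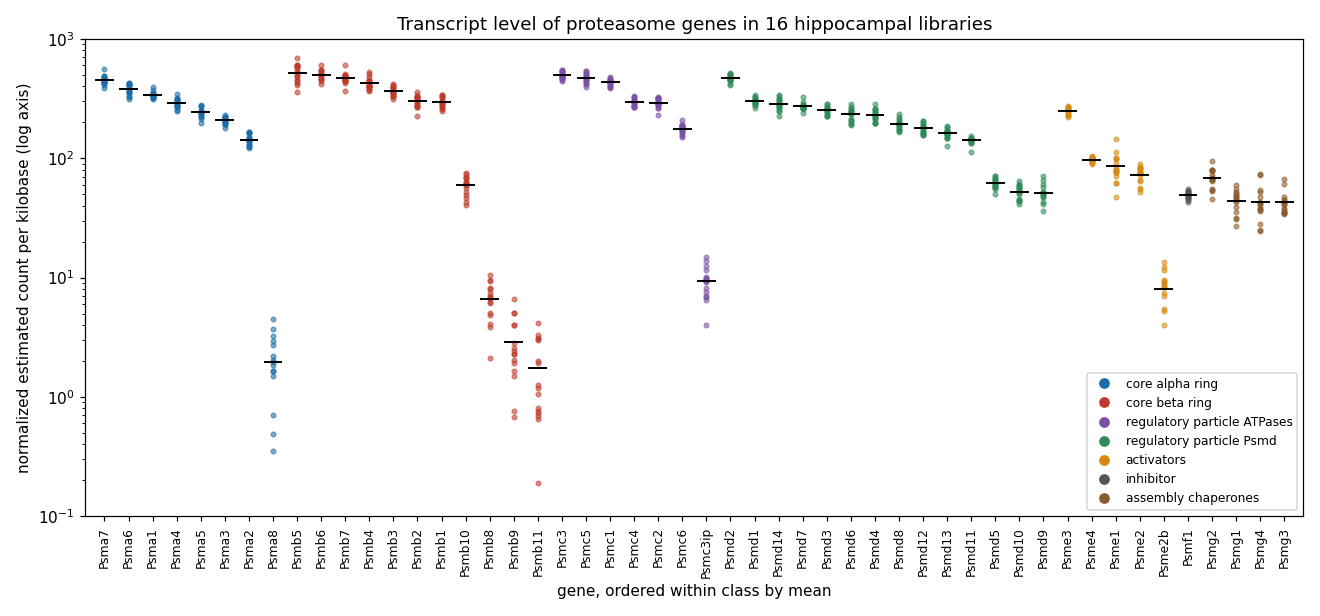
Normalized estimated count per kilobase (log axis) of the 50 proteasome genes, ordered by mean within each class, with 1 point for each of the 16 libraries and a black line at the mean, and values of 0 (1 library each for Psma8 and Psme2b) are not drawn. The means of 32 genes lie between 140.9 and 519.6 per kilobase, and those of Psma8, Psmb8, Psmb9 and Psmb11 below 10.

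The spread of the genes between libraries was close to that of other genes of like mean value. Over all 16 libraries, the SD of log2(value + 2) had a median of 0.13 over the 36 members of mean value at least 100, against 0.145 over the 7683 genes in the same range of mean value. Psme4, the gene of a large nuclear activator, varied least, with an SD of 0.0628 on this log2 scale and a highest value 1.16 times the lowest. Psmb5 had the highest SD among the 36, at 0.252, with a highest value 1.93 times the lowest, a ratio that was 1.97 for Psmd9. The members' transcripts were short, with a median length of 1490.5 bases against 3205 bases for all 14524 annotated genes tested, and their GC content was close to that of all genes (49.8% against 50.1%). 

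The standard cutting subunits far outweighed 2 of the 3 inducible ones. Per kilobase, Psmb8 made up 1.25% ± 0.366 (SD, n = 16) of the sum of Psmb8 and Psmb5, and Psmb9 made up 0.57% ± 0.33 of that of Psmb9 and Psmb6. Psmb10 made up 11.2% ± 1.65 of that of Psmb10 and Psmb7. Psmb9 overlaps Tap1 on the opposite strand, and Psmb7 overlaps Nek6 in the same way, and whether the counting used strand is not given in the sources used here. The thymus subunit Psmb11 had 1.74 ± 1.21 per kilobase. In these bulk samples fewer cells of a type and less RNA per cell cannot be told apart.

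The promoter sequences of 4 members are shown as examples. Psmb5, Psmb4 and Psmd8 are among the members that differed between trained and untrained libraries below, others of which are not shown. Psmb6 shares a motif with Psmb5. The sequences are the bases before the start of the RefSeq transcript on GRCm38.p6, read 5′ to 3′ in the direction of the gene, without bases of an annotated exon. Capitals mark the core of the antioxidant response element, TGACNNNGC, which is known to bind the transcription factors Nfe2l1 and Nfe2l2.
Psmb5, GRCm38.p6 chr14:54618023-54618245, minus strand: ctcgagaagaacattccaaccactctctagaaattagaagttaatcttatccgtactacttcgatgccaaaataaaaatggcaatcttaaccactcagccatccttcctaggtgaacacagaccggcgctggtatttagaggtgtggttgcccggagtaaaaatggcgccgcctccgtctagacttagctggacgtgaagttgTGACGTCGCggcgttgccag
Psmb6, GRCm38.p6 chr11:70525107-70525356, plus strand: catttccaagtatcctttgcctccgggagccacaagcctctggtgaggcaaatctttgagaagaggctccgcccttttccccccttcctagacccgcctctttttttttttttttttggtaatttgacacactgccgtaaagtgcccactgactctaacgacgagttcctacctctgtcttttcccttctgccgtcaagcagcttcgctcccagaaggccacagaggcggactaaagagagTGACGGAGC
Psmb4, GRCm38.p6 chr3:94886962-94887208, minus strand: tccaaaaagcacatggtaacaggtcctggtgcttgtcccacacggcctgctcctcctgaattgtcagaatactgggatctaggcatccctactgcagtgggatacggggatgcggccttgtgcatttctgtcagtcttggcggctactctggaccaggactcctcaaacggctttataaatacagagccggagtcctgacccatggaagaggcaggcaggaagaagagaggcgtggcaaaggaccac
Psmd8, GRCm38.p6 chr7:29180702-29180923, minus strand: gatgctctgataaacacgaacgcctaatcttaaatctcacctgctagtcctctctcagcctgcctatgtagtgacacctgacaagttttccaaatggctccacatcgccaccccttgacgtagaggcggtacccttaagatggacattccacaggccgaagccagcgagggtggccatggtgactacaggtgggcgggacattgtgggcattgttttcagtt

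In the 250 bases before the start, searched on both strands, the element began 47 bases before the start of Psmb5 (of which 27 belong to an annotated exon and are not printed) and 9 bases before that of Psmb6. Neither TGACNNNGC nor CCAAT nor TGACGTCA was found in this window of Psmb4 or Psmd8. Of the 50 members, 42 had a RefSeq promoter entry, 45 entries in all. TGACNNNGC was in 11.1% of the members' entries (Psmb5, Psmb6, Psmc6, Psmd12 and Psmd9) and in 10.2% of all 32851 promoters. CCAAT was in 33.3% of them and in 33.9% of all promoters. TGACGTCA was in 0 of the 45 and in 1.55% of all.

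Over the 3 subregions together, 6 of the 48 members tested differed between trained and untrained libraries, 5 of them higher after training. The question was whether training left a difference that the subregions share, with the subregion as a term in the fit. The 6 calls are 12.5% of the members tested, against 10.3% of all 14673 genes called in that comparison, so the share is near the background. The median difference of the members was 0.04 on the log2 scale against -0.01 over all genes tested. At an unadjusted p under 0.05, 10 members (20.8%) passed, against 25.5% of all genes. Psma8 and Psmb9 were too low to be tested, with values of at most 7.61 and 8.99. Within single subregions Psme2b was too low as well, and so was Psmb11 in CA1 and DG. The 42 members not called had differences from -0.36 (Psmb11, adjusted p = 0.618) to 0.51 (Psme2b, adjusted p = 0.361), both low genes. In Psmb5 and Psmd2 every trained library was above every untrained library of the same subregion in all 3 subregions, which held for 1.62% of all genes tested.

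Psmb5, on chromosome 14 from 54614119 to 54618022 of GRCm38, had values of 537, 427 and 441 in trained CA1 against 372, 408 and 385 in untrained CA1, 528, 506 and 524 against 396 and 459 in CA3, and 616, 544 and 540.3 against 319.8 and 472 in DG. Trained libraries were higher in each subregion without overlap. The gene holds the miRNA gene Mir686 on its own strand. Over all subregions Psmb5 rose (log2 difference 0.35, standard error 0.0727, limma adjusted p = 0.00336, a fold of 1.28). Its counterparts among the cutting subunits had smaller differences that did not pass, 0.06 for Psmb6 (adjusted p = 0.572) and 0.11 for Psmb7 (adjusted p = 0.27).

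Psmb4, a beta ring subunit without a cutting site on chromosome 3 from 94884093 to 94886961, had values of 524, 494 and 474 in trained CA1 against 466, 432 and 477 in untrained CA1, 469, 536 and 524 against 473 and 477 in CA3, and 606, 571 and 625 against 453 and 440.2 in DG. The groups overlapped in CA1 and CA3 and were apart in DG, and the gene rose over all subregions (log2 difference 0.21, standard error 0.0546, limma adjusted p = 0.0166). Psmb10, the inducible trypsin-like subunit on chromosome 8 from 105935735 to 105938444, had values of 81.3, 78.3 and 90.1 in trained CA1 against 56.5, 52.7 and 68.4 in untrained CA1, 74.1, 96.8 and 99.5 against 60.4 and 64.5 in CA3, and 90.9, 82.6 and 90.1 against 78.3 and 83.5 in DG. Trained libraries were higher without overlap in CA1 and CA3, while the DG values overlapped. Psmb10 rose over all subregions (log2 difference 0.38, standard error 0.0999, limma adjusted p = 0.0168). Its inducible partner Psmb8 had a difference of 0.24 (95% interval -0.29 to 0.77, adjusted p = 0.604) at values of 3.44 to 17.0. The inducible genes are expressed by microglia among others. The 7 microglia markers summed to 2012 to 2432 in trained and 2025 to 2479 in untrained libraries, and limma called 0 of 7, with an unadjusted p of at least 0.184 for each. The part of microglia in the Psmb10 difference was not tested.

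Psmd2, which encodes the docking platform of the regulatory particle on chromosome 16 from 20651652 to 20663414, had values of 1482, 1366 and 1402 in trained CA1 against 1320.4, 1345 and 1327 in untrained CA1, 1384, 1530.0 and 1504 against 1224 and 1382 in CA3, and 1471, 1428 and 1518 against 1238 and 1349 in DG. The trained libraries were higher in every subregion, though in CA3 the nearest libraries differed little, and Psmd2 rose (log2 difference 0.15, standard error 0.0404, limma adjusted p = 0.0215). Psmc5, an ATPase of the base on chromosome 11 from 106256154 to 106263120, had values of 665, 609 and 587 in trained CA1 against 636, 603 and 516 in untrained CA1, 607, 648 and 681 against 549 and 620.0 in CA3, and 653, 702 and 714 against 549.7 and 575 in DG. Its groups overlapped in CA1 and CA3, and it rose over all subregions (log2 difference 0.17, standard error 0.0532, limma adjusted p = 0.0439). Psmd8, a lid subunit on chromosome 7 from 29174188 to 29180701, was the member of the 6 that fell. Its values were 345, 329 and 353 in trained CA1 against 385, 388 and 336 in untrained CA1, 379, 367 and 391 against 406 and 467 in CA3, and 388, 341 and 379.9 against 442 and 421 in DG. They overlapped in CA1 and were apart in CA3 and DG (log2 difference -0.17, standard error 0.0525, limma adjusted p = 0.0366).

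The number of calls moved with the libraries in the fit. Without the animal labelled untrained 1, 0 of the 6 were called by limma (6 of the 48 members had an unadjusted p under 0.05), with Psmb5 at 0.22 and an adjusted p of 0.0565. Without trained 2 the count was 1 (Psmb5), and without trained 3 it was 3 (Psmb4, Psmb5 and Psmd8). Without CA3 untrained 1 and DG trained 3, whose sex-linked transcripts stand apart, 3 were called: Psmb5 (0.34, adjusted p = 0.0186), Psmb4 (0.20, 0.0468) and Psmd8 (-0.19, 0.0492). With the trend on GC content and transcript length taken out, Psmb10 (0.32, adjusted p = 0.0538) and Psmd8 (-0.15, adjusted p = 0.135) were not called. With a score of sex-linked transcripts as a covariate limma called 0 of the 48 members (4 had an unadjusted p under 0.05) and 0 of all genes. The differences were then 0.36 for Psmb5, 0.20 for Psmb4, 0.63 for Psmb10, 0.29 for Psmd2 and 0.30 for Psmc5. Psmd8 was at -0.002, and the limma adjusted p of the 6 ran from 0.194 to 0.998. The score was -12.7 to -5.5 in trained libraries and 2.4 to 3.7 in all untrained ones but CA3 untrained 1, at -6.2. It nearly coincides with training, so this fit barely separates them, and no conclusion on sex is drawn from these values.

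**Figure D3:**
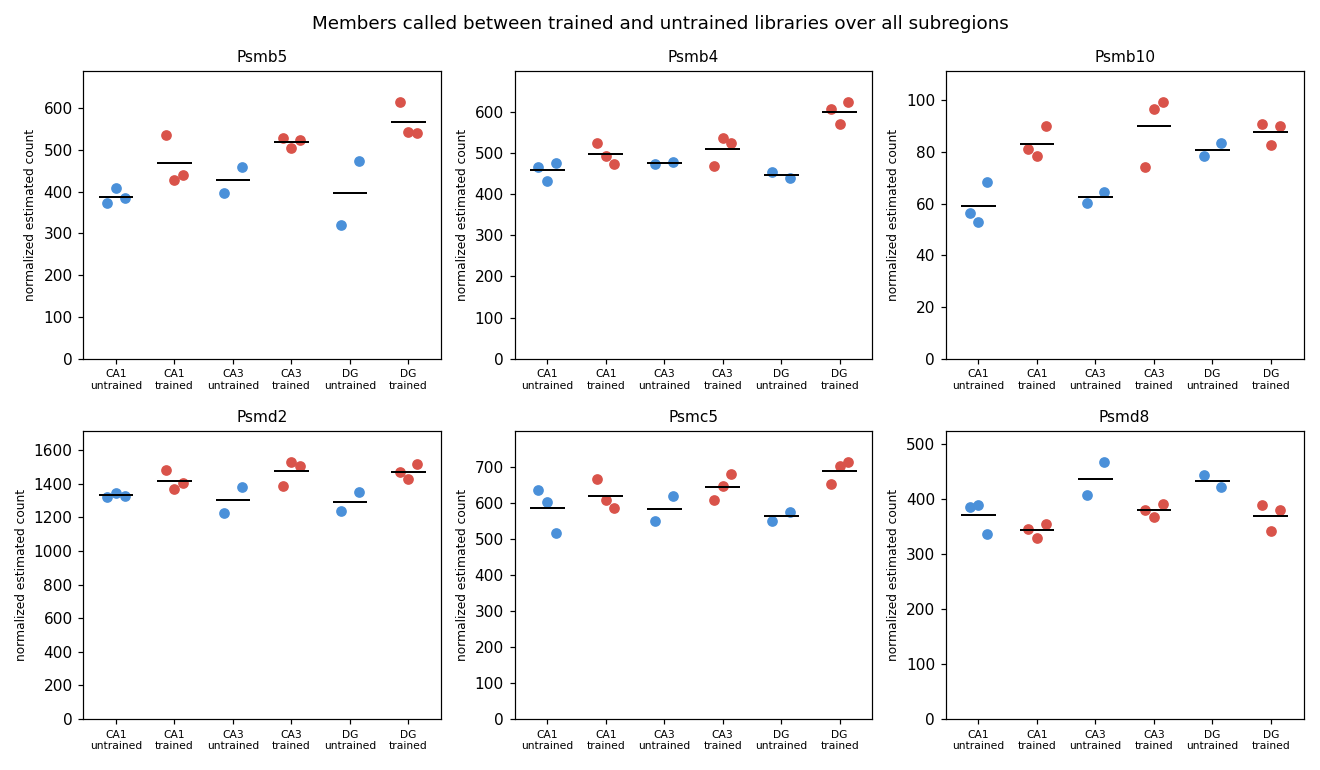
Normalized estimated counts of the 6 members called over all subregions, 1 point per library, by subregion and training (blue untrained, red trained, black lines are group means, axes start at 0). Psmb5 and Psmd2 are higher in every trained library than in any untrained library of the same subregion, and Psmd8 is lower in trained CA3 and DG.

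Within single subregions, members were called in DG and in neither CA1 nor CA3. In CA1, limma called 0 of 46 members (5.23% of all genes were called), and 2 (4.35%) had an unadjusted p under 0.05 against 18.9% of all genes, Psmb5 (0.26, adjusted p = 0.118) and Psmb10 (0.48, adjusted p = 0.141). Beside this, 4 of 5 CA3 pyramidal markers were called higher in trained CA1, and 2 of 5 CA1 pyramidal, 2 of 3 leptomeninges, 1 of 5 dentate granule and 1 of 5 astrocyte markers lower. In CA3 limma called 0 of 47 (0.852% of all genes), and again Psmb5 (0.28, adjusted p = 0.165) and Psmb10 (0.50, adjusted p = 0.192) had an unadjusted p under 0.05, 4.26% of members against 15.8% of all genes. In DG limma called 3 of 46 (3.39% of all genes), and 12 members (26.1%) had an unadjusted p under 0.05 against 19.5% of all genes. The members' median differences were 0.02 in CA1, 0.03 in CA3 and 0.11 in DG, against medians over all genes of 0.00, -0.01 and 0.00. Members whose trained libraries all lay above the untrained ones numbered 6 in CA1 (12.9% of all genes did), 6 in CA3 (17.2%) and 13 in DG (17.5%).

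In DG nearly all core genes had higher means in trained than in untrained libraries. Of the 16 core genes tested there, 15 had a positive difference, with a median of 0.18 on the log2 scale, against 8 of 16 in CA1 (median 0.00) and 10 of 17 in CA3 (median 0.04). All 9 beta ring genes tested had a positive difference in DG. Of the 21 genes counted with the regulatory particle, Psmc3ip included, 14 were positive in DG (median 0.07), 13 in CA1 and 12 in CA3. Over all genes tested, 50.11% had a positive difference in DG, 50.06% in CA1 and 48.9% in CA3. The counts of members describe the list and were not tested as a set.

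Psmb4 rose in DG (log2 difference 0.43, standard error 0.0874, limma adjusted p = 0.0166), with the values given above, which put all 3 trained libraries above both untrained ones. Psmd6, a lid subunit on chromosome 14 from 14112174 to 14120984 of GRCm38, had DG values of 395, 373 and 364 in trained and 262 and 273 in untrained libraries. The groups did not overlap, and Psmd6 rose in DG (log2 difference 0.49, standard error 0.102, limma adjusted p = 0.017). In CA1 its values were 269, 286 and 352 in trained and 329, 339 and 298 in untrained libraries, and in CA3 292, 327 and 346 against 324 and 345, with overlap in both. Psmd14, the lid enzyme that removes ubiquitin from substrates, on chromosome 2 from 61711694 to 61800376, had DG values of 466, 486 and 508 in trained and 347 and 406 in untrained libraries. It rose in DG without overlap (log2 difference 0.37, standard error 0.0991, limma adjusted p = 0.0497), close to the threshold, and was not called in 12 of 15 alternatives (adjusted p from 0.00602 to 0.193 over all 15). Its CA1 values of 519.5, 405 and 381 in trained against 386, 468 and 419.6 in untrained libraries overlapped, as did those of CA3, 430.0, 422 and 441 against 439 and 488. Psmb5 had its widest difference in DG (0.54) but missed the threshold there (adjusted p = 0.0598), with untrained values of 319.8 and 472.

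The DG counts rest on 2 untrained libraries. Leaving out any 1 of the 3 trained libraries gave 0 calls in DG, with 7 to 9 members at an unadjusted p under 0.05, while the differences of the 3 called genes stayed between 0.34 and 0.52. Leaving out an untrained library leaves 1, assumed to vary like the trained ones, and gave 10 calls without untrained 3 and 2 without untrained 1. In CA3, 1 member (Psmb10) was called without trained 1. Beside these differences, both untrained DG libraries had more genes at 0 (7567 and 8636) than the trained ones (3479 to 5944), and the endothelial markers summed to 292 to 325 in trained and 454 to 600.2 in untrained DG, with 1 of 4 called lower (Flt1). The 5 dentate granule markers summed to 7200.2 to 7663 in trained and 8790.1 to 9252 in untrained DG, again without overlap and with 1 of 5 called lower (Prox1). The oligodendrocyte markers summed to 11951 to 13107 in trained against 13776 and 17254 in untrained DG. The interneuron markers summed to 3539 to 3713 against 3186 and 3457. Neither set overlapped, and none of their markers was called. Their part in the result was not tested.

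**Figure D4:**
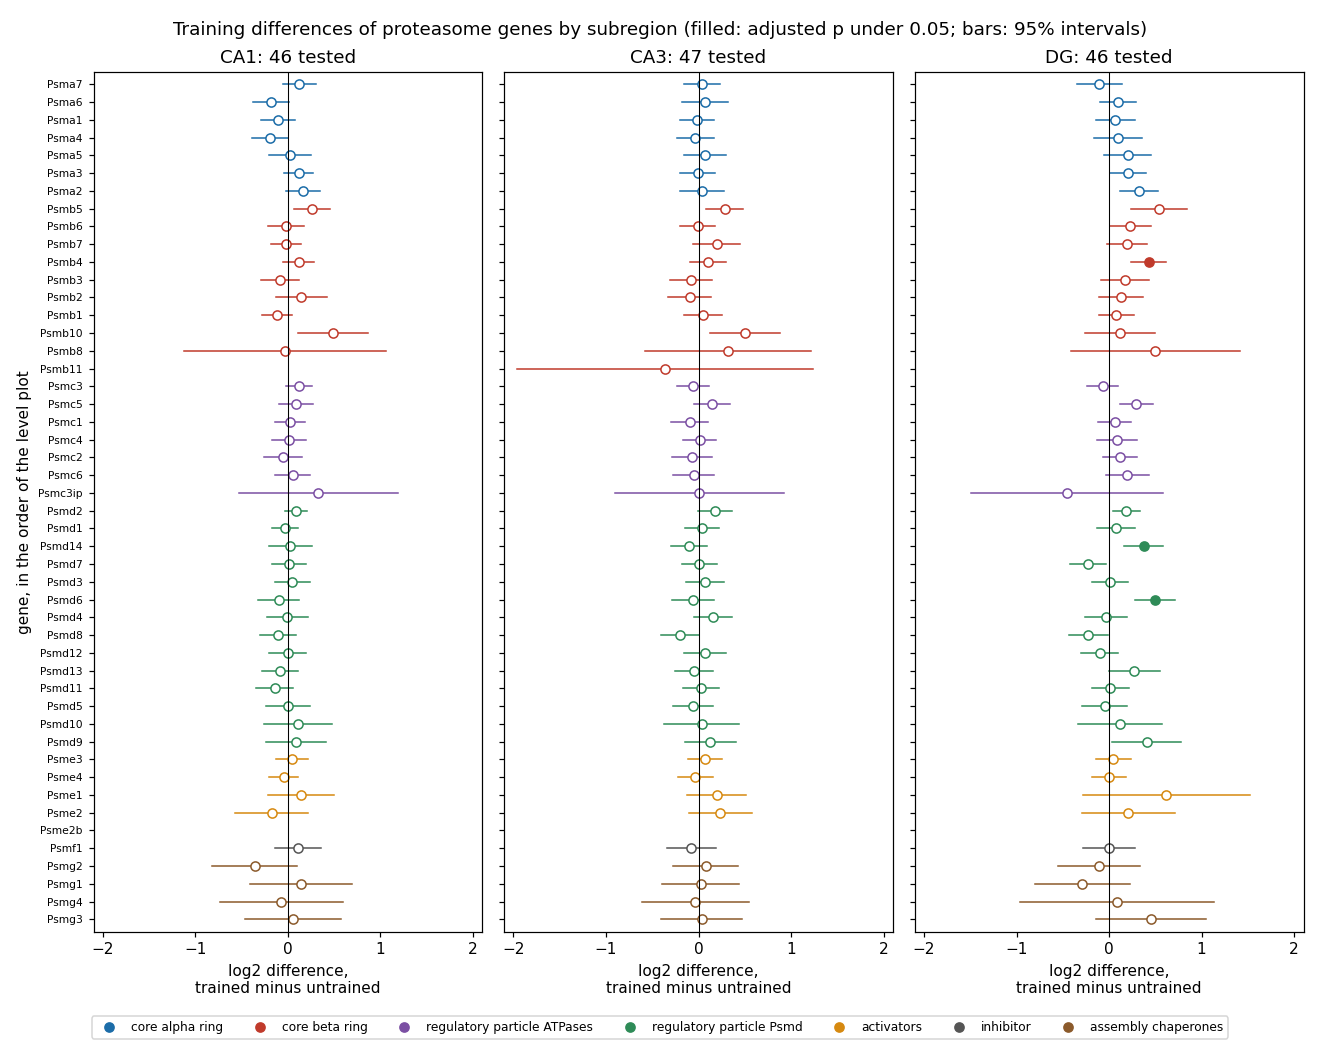
Log2 difference between trained and untrained libraries with its 95% interval for each member tested in CA1, CA3 and DG (limma, filled points have an adjusted p under 0.05, colours are the classes of the level plot). In DG the beta ring genes lie to the right of 0, and Psmb4, Psmd6 and Psmd14 are filled, while no point is filled in CA1 or CA3.

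The summed core level was highest in trained DG. The 50 members together made up 0.211% to 0.254% of a library's summed value. The 19 core genes summed to 6561 ± 215 (SD, n = 3) in trained DG against 5737 ± 379 (SD, n = 2) without training, to 6038 ± 298 (SD, n = 3) and 5798 ± 254 (SD, n = 2) in CA3, and to 5756 ± 109 (SD, n = 3) and 5657 ± 58 (SD, n = 3) in CA1. All 3 trained DG libraries were above both untrained ones, and the groups overlapped in CA1 and CA3. The 20 regulatory particle genes summed to 10461 ± 319 (SD, n = 3) in trained DG against 9856 ± 578 (SD, n = 2) without training, with overlap. The ratio of the regulatory to the core sum was 1.59, 1.6 and 1.59 in trained and 1.73 and 1.71 in untrained DG. It ran from 1.62 to 1.72 in trained and from 1.66 to 1.69 in untrained CA1. In CA3 it was 1.62 to 1.67 in trained and 1.68 and 1.7 in untrained libraries. The trained libraries were the lower ones without overlap in DG and CA3, and no p is given for these sums. In CA3 the choroid plexus markers summed to 234 to 312 in trained against 771 to 1073 in untrained libraries, with 1 of 4 called lower (Ttr), the leptomeninges markers to 970.5 to 1686 against 2048 to 2299.9 and the astrocyte markers to 8688 to 9640.2 against 9862 to 10891, with none called, and 1 of 5 interneuron markers was called higher (Sst). Their part in the result was not tested.

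**Figure D5:**
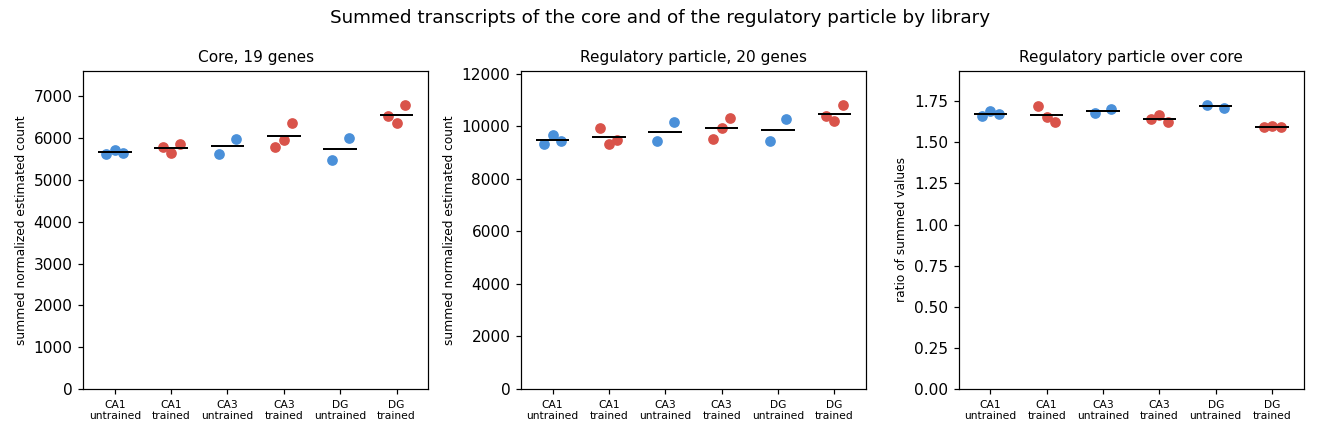
Summed normalized estimated counts of the 19 core genes and of the 20 regulatory particle genes, and their ratio, for each library by subregion and training (blue untrained, red trained, black lines are group means, axes start at 0). The core sum of the 3 trained DG libraries lies above both untrained ones, and their ratio of 1.59 to 1.60 lies below the 1.71 and 1.73 of untrained DG.

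Between subregions, with trained and untrained weighted equally, CA1 and DG differed most. Of 48 members, 2 were lower in CA1 than in DG (4.05% of all genes were called either way), and 12 (25%) had an unadjusted p under 0.05 against 19.6% of all genes. Psmb1, a beta ring subunit on chromosome 17 from 15475021 to 15499751, had values of 459, 456 and 436 in trained and 472, 484 and 509 in untrained CA1, and of 564, 568 and 599 in trained and 513 and 582 in untrained DG. Every CA1 library was below every DG library (log2 difference -0.26, standard error 0.0586, limma adjusted p = 0.0137). Psmd12, a lid subunit on chromosome 11 from 107479484 to 107504362, had values of 342, 302 and 313 in trained and 299, 343 and 317 in untrained CA1, and of 356, 363 and 377 in trained and 392 and 393 in untrained DG, again without overlap (log2 difference -0.25, standard error 0.066, limma adjusted p = 0.0352). Differences were negative for 39 of the 48, with a median of -0.11 against 0.00 over all genes, of which 49.3% had a positive difference. Those of all 10 beta ring genes and all 7 Psmc genes tested were negative. Both calls were lost when the trend on GC content and transcript length was removed (adjusted p = 0.0699 and 0.104) and without trained 2, trained 3 or untrained 3, with differences over these runs of -0.19 to -0.27 for Psmb1 and -0.19 to -0.24 for Psmd12. Of 4 endothelial markers Cldn5 and Flt1 were higher in CA1 than in DG, with sums of 538 to 646 in CA1 and 292 to 600.2 in DG. Of the pyramidal cell markers, 3 of 5 of CA3 (Bok, Cpne4 and Grik4) were lower in CA1, with sums of 1643 to 2620.2 against 2479.6 to 2901 in DG, and 1 of 5 of CA1 (Man1a) was higher, with sums of 1378 to 4199 against 1108 to 1649. The part of these cells was not tested.

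Between CA3 and DG limma called 0 of 48 members (0.00682% of all genes, which is 1 gene), with 2 (4.17%) at an unadjusted p under 0.05 against 6.86% of all genes. The median difference was -0.02, and the values lay between -0.22 and 0.33. Between CA1 and CA3 it called 0 of 48 (0.988%), with 3 (6.25%) at an unadjusted p under 0.05 against 10.2% of all genes, and values from -0.48 to 0.43. Since granule cell markers were similar in libraries of all labels, these contrasts compare the dissected pieces as labelled. Libraries that the labels give to 1 animal enter the same fit, and with the labelled animal as a block the counts were the same, at 2, 0 and 0. For untrained 1 the Xist values given above go against that label, since CA3 differs from CA1 and DG.

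The training difference itself was compared between subregions as an interaction. Of 48 members, 1 differed between CA1 and DG (2.75% of all genes did), 0 between CA3 and DG (0.164%) and 0 between CA1 and CA3 (0.0273%), with 5, 3 and 0 at an unadjusted p under 0.05 (limma), which are 10.4%, 6.25% and 0% of members against 17.8%, 11.7% and 6.71% of all genes. The member was Psmd6, which had a training difference of -0.10 in CA1 and 0.49 in DG (log2 difference -0.59, standard error 0.148, limma adjusted p = 0.032). The difference between CA3 and DG for Psmd6 was -0.55 (adjusted p = 0.163). The call was lost without the libraries whose sex-linked transcripts stand apart, at a value of -0.62 (adjusted p = 0.0693), and with a covariate marking the libraries rich in genes at 0, where the value was -0.27. It was also lost without trained 1, trained 2, untrained 1 or untrained 2, with values of -0.48 to -0.56. In the same interaction 1 of 5 CA3 pyramidal markers (Cpne4) was called higher and 1 of 5 CA1 pyramidal markers (Man1a) lower, and their part was not tested. The covariate for genes at 0 does not vary within any CA1 or DG group and follows this contrast. Its estimate rests on the trained CA3 libraries alone, so that run cannot decide whether the Psmd6 difference holds. After removal of the trend on GC content and length, Psmd7, a lid subunit, was called in place of Psmd6. No core gene was called in any of the 3 interaction contrasts.

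The genes around the proteasome were looked at in 4 lists of 31 genes, of which 30 were in the files and were tested. Over all subregions 3 were higher and 2 lower after training, where 10.3% of all genes were called, with a median of 0.03 on the log2 scale. Usp14, a deubiquitinase bound to the regulatory particle, had trained values of 946 to 1156 (median 1047) and untrained values of 834 to 1001 (median 861), and rose (log2 difference 0.22, adjusted p = 0.00559). Nfe2l1, the transcription factor known to drive proteasome genes when the proteasome is impaired, had trained values of 2137 to 2558 (median 2228) and untrained values of 1827 to 2125 (median 1994), and rose (log2 difference 0.19, adjusted p = 0.00669). All trained Nfe2l1 values lay above all untrained ones, and the Usp14 ranges overlapped.

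Ubqln2, a shuttle for ubiquitinated proteins, had trained values of 1642 to 1941 (median 1718) and untrained values of 1374 to 1757 (median 1557) and rose (0.17, adjusted p = 0.0207). Ddi2, the protease that activates the Nfe2l1 protein, fell, with trained values of 323 to 480.0 (median 447) and untrained values of 469 to 594 (median 488) (-0.25, adjusted p = 0.0147). Nfe2l2, the factor of the antioxidant response, fell too (-0.28, adjusted p = 0.0285), with trained values of 96.5 to 130.1 (median 103) and untrained values of 108 to 156 (median 125). Both ranges overlapped. Nfe2l1 and Nfe2l2, the factors known to bind the element printed above, differed in opposite directions. With the covariate for sex-linked transcripts 0 of all genes were called, so these 5 calls were lost too. Within CA1 and within CA3 limma called 0 of the 30, with 5 and 6 at an unadjusted p under 0.05, where 18.9% and 15.8% of all genes passed. In DG the ubiquitin gene Ubb fell, from 5140.2 and 6167 in untrained to 4193, 4174 and 4235 in trained libraries (-0.42, adjusted p = 0.00543). Ubb and Uba1, the main ubiquitin-activating enzyme, were lower in CA1 than in DG, with differences of -0.29 (adjusted p = 0.00182) and -0.18 (adjusted p = 0.0151). For Ubb the training difference also differed between CA1 and DG (0.43, limma adjusted p = 0.0166). This call was lost with the covariate for libraries rich in genes at 0, under which 0 of all genes were called. That covariate follows this contrast, so the loss cannot decide whether the Ubb difference holds.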

How the data were processed

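RNA of microdissected dorsal CA1, CA3 and DG was depleted of rRNA per the study's methods (the labels name polyA RNA) and sequenced on paired ends. The submitters' processing notes name bcl2fastq 2.20, FastQC, Trim Galore, STAR, DESeq2 and GRCm38, and the study's methods also name Salmon. The deposited signal values are estimated counts per gene that the authors normalized between libraries, and the scaling method is not given in the sources used here. Whole reads could not be recovered, so no count test was run and depth is unknown, and no interval for counting error is given.

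Genes reaching a value of 10 in 2 or more libraries (in CA1, 3 or more) were tested with limma 3.58.1 in R 4.3.3 on log2(value + 2), with a trend and robust estimation, and Benjamini-Hochberg adjustment over all genes (threshold 0.05). Fold changes are on that scale, which understates changes of low genes. Training was tested over all libraries with subregion as a term and within each subregion, and subregion and interaction contrasts came from 1 fit of 6 groups. On simulated data, changes of 1 log2 unit were recovered for 89.7% of changed genes over all subregions, 74.2% in CA1, 67.4% in CA3, 62.2% in DG, 85.8% for CA1 against DG and 54.4% for the interaction of training with CA1 and DG. All called members had smaller differences than this, and recovery at their size was not simulated. Tables and plots were made with Python 3.11.15, pandas 2.3.3 and matplotlib 3.10.9. Genes were matched by symbol to GENCODE on GRCm38 (24523 of 24972, all 50 members).

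The members, pathway lists and marker lists were chosen with earlier results of these data known. Members were named with values when called, when cutting, inducible or tissue-restricted, when highest or lowest of their class, or when no subunit. Alternatives were 2 other scalings, a pseudocount of 0.5, other filters, no robust estimation, removal of the GC and length trend, added covariates, a replicate block, and leaving out libraries. By the labels CA1, CA3 and DG libraries of 1 number and training group come from 1 animal, which the Xist values of untrained 1 go against. Correlations of their deviations from group means ran from -0.108 to 0.0921. Trained and untrained samples share only a number. By the study's methods replicates are separate mice, 3 in each training group. The mixed sex-linked transcripts of several libraries leave this unverified.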

Additional observations from a re-analysis of the deposited data

Results flagged for a closer look

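Psmb1 in CA3 trained 3 had a normalized estimated count of 598.5, apart from the other 4 CA3 libraries, the nearest of which had 528.5. The gap was 0.73 of the range over the 5 libraries. Dixon's test at 95% was applied to 50 groups, of which chance flags about 1 in 20.

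The training difference of Psmd6 differed between CA1 and DG by -0.59 on the log2 scale (limma interaction, adjusted p = 0.032).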

How the results depend on the processing

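The alternatives were run on the counts of members called and on the differences of the called members, none of which changed direction. Sums, ratios and levels were not rerun, and of pathway genes only the loss of every call where 0 of all genes were called is known. The count of members called over all subregions (6) was 3 without the libraries whose sex-linked transcripts stand apart (CA3 untrained 1 and DG trained 3), 0 with a covariate for sex-linked transcripts, and 0 to 6 when animals were left out in turn. In CA3 the count (0) was 0 to 1 over the left-out animals. In DG the count (3) was 0 without the same discordant library and 0 to 10 over left-out animals, where leaving out an untrained library leaves 1, assumed to vary like the trained ones. Between CA1 and DG the count (2) was 1 with no filter, 0 with the GC and length trend removed, 1 without the discordant libraries and 0 to 2 over left-out animals. For the interaction of CA1 and DG the count (1) was 0 without the discordant libraries, 0 with a covariate marking the libraries rich in genes at 0, and 0 to 1 over left-out animals. In these cases the cause was not tested. The covariate for genes at 0 follows the interaction contrast of CA1 and DG, so its count of 0 cannot decide it. Psmd14 in DG was not called in 12 of its 15 alternatives, and over all subregions Psmc5 in 9 of 17, Psmb10 and Psmd8 in 7 each, Psmd2 in 6, Psmb4 in 3 and Psmb5 in 2 (adjusted p up to 0.45). The counts of 0 in CA1, in CA3 against DG, in CA1 against CA3 and in the other 2 interactions stayed at 0 under every alternative run. Leaving out CA3 untrained 1 and DG trained 3 could not be run in CA1, which holds neither.

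With the labelled animal as a replicate block the counts were 6 over all subregions (consensus correlation -0.0355), 2, 0 and 0 between subregions, and 1, 0 and 0 for the interactions, and no call changed. Trained and untrained samples share only a number. Blocking on it gave 0 calls in CA1, 0 in CA3 and 3 in DG, where Psmd14 was not called (adjusted p = 0.0575) and Psmb5 was. The correlations of same-numbered deviations ran from -0.18 to 0.119. The depth is unknown, so it is not known which low values (Psma8, Psmb9, Psmb11, Psme2b) counting error could account for.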
